A study of Mus musculus with 8 samples.

Results

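Tissue that was rich in macrophage molecules and poor in proliferation molecules made up 950 of the 18080 tissue bins, or 5.25%, of 8 mouse brain sections bearing GL261 glioma. A bin was a square of 360 by 360 pixels and counted as tissue from 20 gene molecules. A bin was a member when it held under 10 molecules of the proliferation genes Mki67 and Birc5 together, 30 or more of the macrophage genes Adgre1 and Cd68 together, and under 30 of the chemokines Cxcl9 and Cxcl10 together. These 6 genes therefore chose the members, and any value given for them is a description without a test. Adgre1 and Cd68 were already known to be higher in sections given CpG-STAT3ASO when the limits were set.

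Each section was read by single-molecule fluorescence in situ hybridization of a panel of 100 genes, which gives the position of every detected RNA molecule. GL261, a mouse glioma cell line, was implanted, and all mice then received 4 treatments into the brain and were killed on day 21. The treatment was PBS, the checkpoint antibody anti-PD1, CpG-STAT3ASO, or CpG-STAT3ASO with anti-PD1 (the combination), with 2 sections per treatment. The labels do not say that the sections of a treatment came from separate animals, so p-values measure the spread between sections, and the strain, sex and age were not given in the sources used here. CpG-STAT3ASO is named for a CpG oligonucleotide, the kind of DNA that the receptor TLR9 senses, and an antisense oligonucleotide to STAT3.

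Macrophages of a brain tumour come from resident microglia and from monocytes that enter with the blood. Adgre1 encodes the surface protein F4/80 and Cd68 a lysosomal glycoprotein of phagocytes, and both are expressed by either kind of cell. Macrophages that take up debris or lipid often express Gpnmb, Spp1 and the scavenger receptor Msr1, and those with a suppressive profile Arg1 and Il10. A bin can hold several cells of different types, and more cells of a type cannot be told apart from more RNA per cell. The panel held Tmem119 and Csf1r of the microglia list and S1pr1 of the brain cell list, so neurons, oligodendrocytes and astrocytes could not be followed by their usual markers.

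Sections without CpG-STAT3ASO held 4195896 to 6995401 molecules and sections with it 1669939 to 3927955. Codes whose names start with FP, which are not genes and were dropped, made up 0.106% to 0.306% of the molecules of a section. Members held 1.89 to 2.40 such codes per bin in the sections given CpG-STAT3ASO and other low-proliferation bins 2.11 to 2.45.

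Members were found almost entirely in sections given CpG-STAT3ASO, which held 936 of the 950 (98.5%). The PBS sections held 12 and 0 members, 0.541% (exact binomial 95% interval 0.280% to 0.942%) and 0% of their tissue bins. The anti-PD1 sections held 2 and 0 members, 0.0899% (0.0109% to 0.324%) and 0%. For the sections with 0 members the exact interval reached 0.171% in PBS and 0.156% in anti-PD1, and 3 counts would be 0.139% and 0.127%. The CpG-STAT3ASO sections held 291 and 149 members, 12.4% (11.1% to 13.8%) and 6.77% (5.75% to 7.90%). The combination sections held 371 and 125, 17.1% (15.5% to 18.7%) and 5.20% (4.34% to 6.16%). The 2 groups of 4 sections did not overlap, and within each treatment that included CpG-STAT3ASO the sections differed by more than their counting intervals. These intervals cover counting error only.

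The mean share of tissue was 10.4% ± 5.44 (SD, n = 4) with CpG-STAT3ASO and 0.158% ± 0.259 (SD, n = 4) without, a difference of 10.2 percentage points (two-sided exact permutation test, p = 0.0286, the smallest that 70 assignments can give). As a share of low-proliferation bins, members were 17.2%, 9.46%, 20.4% and 10.2% in the sections given the agent, against 1.02%, 0%, 0.170% and 0% in the others. Their means were 14.3% ± 5.34 and 0.298% (two-sided exact permutation test, n = 4 per side, p = 0.0286). Because the macrophage genes of the rule were known to rise, neither test is independent support for that rise. With and without anti-PD1 the shares differed by 0.650 percentage points (two-sided exact permutation test, n = 4 per side, p = 0.971).

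Bins with as many Adgre1 and Cd68 molecules also occurred outside low-proliferation tissue. Counting every tissue bin with 30 or more, the PBS sections held 209 and 19, the anti-PD1 sections 62 and 74, the CpG-STAT3ASO sections 619 and 483, and the combination sections 620 and 1013. Without CpG-STAT3ASO, 288 of 364 such bins (79.1%) were dense, with 100 or more Mki67 and Birc5 molecules, and 15 (4.12%) were low in proliferation. With CpG-STAT3ASO, 123 of 2735 (4.5%) were dense, 1525 were intermediate and 1087 (39.7%) were low in proliferation. Macrophage-rich bins were thus mostly dense bins in sections without the agent and mostly other bins in sections with it. Sections without the agent also had more dense bins, 714 to 1090 against 22 to 78, and the part of that difference in these shares was not tested. Taken as a share of the dense bins, the order was the other way. With 30 or more Adgre1 and Cd68 molecules were 20.3% and 1.87% of dense bins in PBS and 6.17% and 6.79% in anti-PD1. In CpG-STAT3ASO they were 82.6% and 72.7%, and in the combination 68.2% and 83.3%. Dense bins were thus more often macrophage-rich in sections with the agent.

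**Figure D1:**
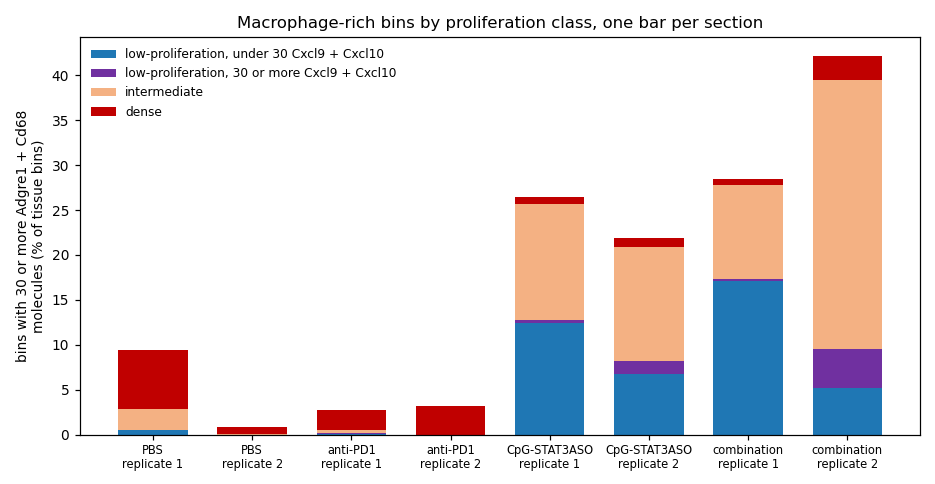
Bins with 30 or more Adgre1 and Cd68 molecules as a percentage of tissue bins (vertical axis), 1 bar per section, split by proliferation class. The members (blue) reach 5.20% to 17.1% of tissue in the 4 sections given CpG-STAT3ASO and at most 0.541% in the others.

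In the 4 sections given CpG-STAT3ASO, members were compared with other low-proliferation bins for position. The median distance to the nearest dense bin was 3.61, 4, 4.47 and 2.83 bins for members and 12.6, 9, 15 and 6.71 bins for other low-proliferation bins, in the order CpG-STAT3ASO replicates 1 and 2 and combination replicates 1 and 2, the order used from here on. Members were nearer in all 4 sections, by a mean of 7.11 bins (a member-minus-other difference of -7.11; two-sided exact sign-flip permutation test, n = 4, p = 0.125, the smallest that 4 sections allow). A bin with 10 or more Mki67 and Birc5 molecules touched 94.2%, 98.0%, 76.5% and 100% of members and 67.9%, 52.9%, 23.8% and 80% of other low-proliferation bins. The share of members touching such a bin was higher in each section. The median distance to such a bin was 1 for members in every section and 1, 1.41, 5 and 1 for other bins, equal in 2 of 4 sections (mean difference -1.10, two-sided exact sign-flip permutation test, n = 4, p = 0.5).

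Members also clustered with each other. Of the 8 neighbours of a member, 26.4%, 33.1%, 39.7% and 23.4% were members, against 7.68%, 2.55%, 8.72% and 2.32% of the neighbours of other low-proliferation bins. The largest connected patch held 62, 34, 73 and 30 bins, and 36, 23, 30 and 35 members had no member neighbour. Combination replicate 2 had the smallest share in patches of 10 or more bins, 24.0%, against 39.9%, 77.2% and 70.6%. In that section intermediate bins made up 54.0% of a member's neighbours. In PBS replicate 1, 7 of the 12 members touched a dense bin.

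**Figure D2:**
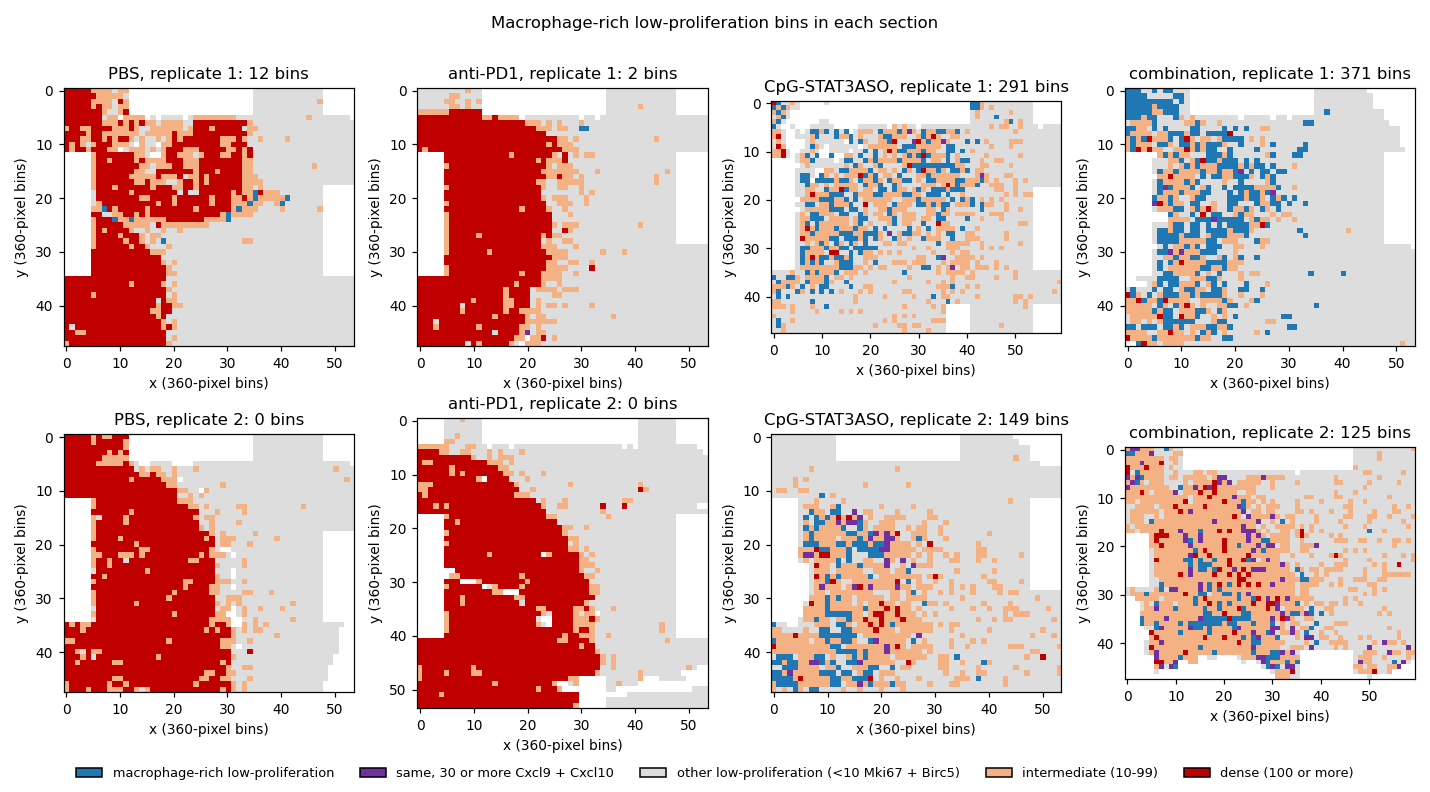
Each panel is 1 section, with x and y in 360-pixel bins and the colour giving the class of the bin. Members (blue) are intermixed with intermediate bins (orange) on the left side of the 4 sections given CpG-STAT3ASO, where dense bins (red) are few, and are scarce in the other 4.

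Among the genes that chose them, members held on average 19.0, 19.7, 14.5 and 20.3 Adgre1 molecules per bin and 30.1, 32.0, 37.0 and 65.0 Cd68 molecules. Cd68 outnumbered Adgre1 by 1.59, 1.62, 2.54 and 3.20 times, and by 5.40 times over the 12 members of PBS replicate 1. In members this ratio was higher in the combination sections than in the CpG-STAT3ASO sections. In other low-proliferation bins it was 1.95, 2.26, 2.61 and 2.08, where the treatments overlapped. Both genes chose the members, and a treatment difference in the ratio was not tested. Members held 28.1%, 18.5%, 35.9% and 10.2% of all Adgre1 and Cd68 molecules of their section. The median member held 3, 4, 2 and 5 Mki67 and Birc5 molecules together. The median other low-proliferation bin held 1, 1, 0 and 2, so members were the higher of these low bins.

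Members held more molecules in all than other low-proliferation bins, with medians of 852, 1294, 875 and 1859 against 567, 834, 639 and 1172.5, which is 1.37 to 1.59 times as many. Close to the limit, bins with 25 to 29 Adgre1 and Cd68 molecules held 8.76, 6.64, 8.48 and 2.62 Gpnmb molecules per bin and those with 30 to 34 held 15.4, 8.77, 8.23 and 3.82. Gpnmb was thus higher just inside the limit in 3 sections and slightly lower there in combination replicate 1.

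The next comparison asked which of the other genes set members apart from other low-proliferation bins of the same section. It used the 4 sections with 20 or more members, all given CpG-STAT3ASO, and each gene's share of the molecules, in CPM (molecules per 1000000) without the 6 genes of the rule. Of 91 genes tested, 45 (49.5%) differed at an adjusted p under 0.05 (limma with section as a block, Benjamini-Hochberg), 31 higher (34.1%) and 14 lower (15.4%), and the median gene differed by 0.44 on the log2 scale. Below, folds and log2 differences are on the log2(CPM + 1) scale. The split depended on scaling. With molecules per bin, 54 were higher and 5 lower (91.5% higher, median 0.99), and with median-of-ratios scaling 22 were higher and 20 lower (52.4% higher, median near 0). The 45 genes kept their direction in both.

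Many of the other low-proliferation bins lay far from the members, so the members were also compared with those within 3 bins of one, a comparison chosen after the data were seen. There 37 of 90 genes (41.1%) differed, 23 higher (25.6%) and 14 lower (15.6%), with a median of 0.06. In all, 20 genes were higher by share, per bin, by median-of-ratios and against the near bins. They were Arg1, Ccl3, Ccl4, Ccl5, Cd14, Cd74, Cd80, Csf2rb, Gpnmb, Havcr2, Il10, Il16, Il1b, Msr1, Ptprc, Spp1, Tgfb1, Tgfbi, Tlr9 and Tnf.

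Gpnmb and Msr1, both of the scavenger and lipid-handling list, showed the 2 largest rises. Gpnmb, a glycoprotein of phagocytes loaded with debris, was present at 23.7, 20.6, 22.6 and 31.8 molecules per member bin and 2.54, 1.40, 2.10 and 3.04 per other bin. It was 7.55-fold higher by share (log2 2.92, SE 0.14, limma adjusted p = 4.65e-05), and 3.90-fold against the near bins. The scavenger receptor gene Msr1 was present at 2.69, 2.24, 3.16 and 8.28 molecules per member bin and 0.297, 0.215, 0.274 and 0.767 per other bin (log2 2.82, SE 0.17, limma adjusted p = 9.57e-05). For both genes the member and other sections did not overlap.

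Spp1, which encodes the secreted protein osteopontin, was present at 11.9, 7.11, 26.4 and 19.2 molecules per member bin and 2.21, 2.74, 4.34 and 3.02 per other bin (log2 1.71, SE 0.26, limma adjusted p = 0.00246). Of the 5 tested genes of this list, 3 rose and none fell, against 34.1% and 15.4% of all genes tested, with a median of 1.71 against 0.44. The remaining genes were Fabp5, a fatty acid binding protein (log2 0.14, limma adjusted p = 0.587), and Mrc1, the mannose receptor. Mrc1 was present at 1.93, 0.275, 1.36 and 0.584 molecules per member bin and 0.318, 0.314, 0.414 and 0.245 per other bin (log2 0.78, limma adjusted p = 0.208). It was below its other bins in CpG-STAT3ASO replicate 2 alone, and it did pass against the near bins (log2 0.98, limma adjusted p = 0.0336).

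Gpnmb was uneven among the members themselves. The median member held 11, 8, 8 and 23 molecules and the fullest 166, 325, 432 and 157, and 88.0%, 84.6%, 84.4% and 92.8% of members held at least 1. As a description over member bins, which share a section and lie beside each other, the shares of Gpnmb and Spp1 correlated with a median Spearman rho of 0.51 over the 4 sections (0.37 to 0.56).

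Of 7 tested macrophage and monocyte genes 6 rose and none fell, against 34.1% and 15.4% of all genes, with a median of 1.63 against 0.44. The gene that did not pass was Mrc1. Tgfbi, a matrix protein made by monocyte-derived cells, was present at 29.3, 42.0, 16.0 and 96.0 molecules per member bin and 5.06, 4.85, 2.87 and 18.1 per other bin (log2 2.08, SE 0.15, limma adjusted p = 0.000164). Cd14, a co-receptor for bacterial lipopolysaccharide, was present at 1.88, 1.59, 2.34 and 1.43 per member bin and 0.357, 0.444, 0.551 and 0.265 per other bin (log2 1.63, SE 0.20, limma adjusted p = 0.000925). Ccr2, the chemokine receptor of entering monocytes, rose by 1.41 (SE 0.23, limma adjusted p = 0.00292), but against the near bins its difference was 0.55 (limma adjusted p = 0.0639).

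The 2 microglia genes showed smaller differences by share. Csf1r is also counted in the macrophage and monocyte list above, so only Tmem119 sets the 2 lists apart here. Csf1r, the receptor for the growth factor CSF1 on microglia and macrophages, was present at 65.4, 61.3, 58.9 and 62.2 molecules per member bin and 25.1, 24.0, 25.4 and 31.7 per other bin (log2 0.67, SE 0.14, limma adjusted p = 0.00753). Tmem119, a microglial membrane protein, was present at 13.7, 15.5, 15.1 and 8.77 per member bin and 5.80, 5.41, 6.28 and 6.88 per other bin (log2 0.54, SE 0.21, limma adjusted p = 0.0750). Per bin it was higher in all 4 sections, and as a share in 3. Across member bins the shares of Csf1r and Tmem119 correlated with a median Spearman rho of 0.55 (0.43 to 0.67).

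Grouping the low-proliferation bins by their Adgre1 and Cd68 molecules showed different courses. From bins with 15 to 29 to bins with 60 or more, Gpnmb went from 8.30 to 39.1, from 3.08 to 27.1, from 7.04 to 44.5 and from 1.63 to 23.4 molecules per 1000. Tmem119 went from 15.5 to 14, from 9.89 to 11.6, from 16.3 to 17.2 and from 6.70 to 4.56. Gpnmb thus kept climbing among the richest bins while Tmem119 did not climb in every section.

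**Figure D3:**
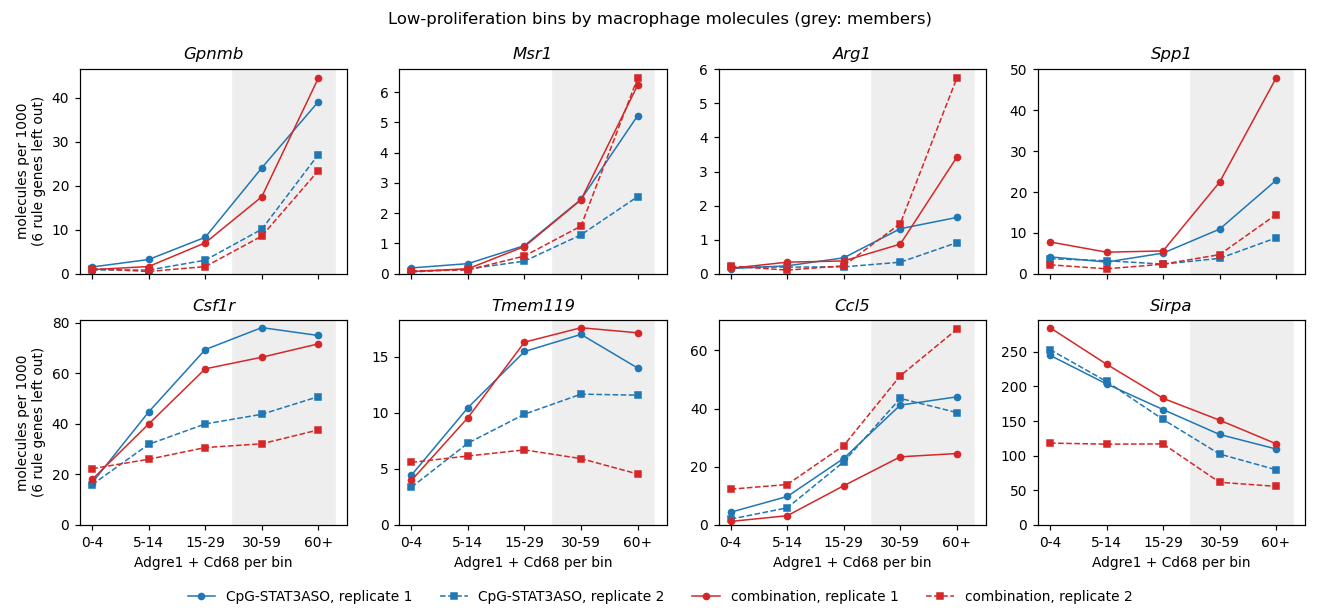
Molecules per 1000 (vertical axis, 6 rule genes left out) of 8 genes in low-proliferation bins grouped by Adgre1 plus Cd68 molecules (horizontal axis), 1 line per section given CpG-STAT3ASO, with the range of the members in grey. Gpnmb, Msr1, Arg1 and Spp1 are highest in bins with 60 or more such molecules in every section, and Sirpa is lowest there.

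Of 10 tested suppressive myeloid genes 4 rose and 1 fell, near the 34.1% and 15.4% of all genes, with a median of 0.87 against 0.44. Arg1, the enzyme arginase that depletes arginine, was present at 1.19, 0.691, 1.46 and 7.40 molecules per member bin and 0.172, 0.172, 0.220 and 0.405 per other bin (log2 2.37, SE 0.37, limma adjusted p = 0.00287). Il10, an anti-inflammatory cytokine, was sparse, with 0.0928, 0.221, 0.0620 and 0.336 molecules per member bin and 0.0121, 0.0231, 0.00898 and 0.0364 per other bin (log2 2.43, SE 0.31, limma adjusted p = 0.00115). Only 6.19%, 11.4%, 4.58% and 14.4% of members held an Il10 molecule, and its mean was -0.71 in bins of 180 pixels over all 8 sections. There it stayed higher in members of the 4 sections given CpG-STAT3ASO (1.82, 1.84, 2.75 and 1.32) and was lower in 3 of the other 4. Cd274, which encodes PD-L1, rose by 0.82 (SE 0.24, limma adjusted p = 0.0311), with 0.40 against the near bins (limma adjusted p = 0.186). Vegfa, an angiogenic factor, fell by 0.89 (SE 0.17, limma adjusted p = 0.00536).

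Of 6 chemokine and receptor genes 4 rose and none fell, against 34.1% and 15.4% of all genes, with a median of 1.61 against 0.44. Ccl5, which attracts T cells and monocytes, was present at 35.5, 55.9, 20.6 and 107 molecules per member bin and 7.08, 8.10, 3.63 and 29.5 per other bin (log2 1.81, SE 0.18, limma adjusted p = 0.000481). Ccl3 rose by 2.10 (SE 0.16) and Ccl4 by 1.81 (SE 0.25), with limma adjusted p-values of 0.000194 and 0.00176. Of 9 genes of Toll-like receptor signalling and inflammation 3 rose and 1 fell, near the shares over all genes, with a median of 0.52.

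Tlr9, the receptor for CpG DNA, was present at 4.24, 5.35, 3.67 and 8.28 molecules per member bin and 1.16, 1.04, 0.970 and 2.46 per other bin (log2 1.42, SE 0.15, limma adjusted p = 0.000603). At least 1 Tlr9 molecule was found in 97.3%, 98.0%, 91.4% and 98.4% of members. Tnf rose by 1.80 (SE 0.21, limma adjusted p = 0.000923). Il12a, a subunit of the cytokine IL-12, fell by 1.73 (SE 0.28, limma adjusted p = 0.00292), and Il12b, the other subunit, differed by 0.23 (limma adjusted p = 0.808). Stat3, the gene the antisense oligonucleotide is directed at, differed by -0.13 (SE 0.21, limma adjusted p = 0.652).

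Of 5 antigen presentation and costimulation genes 4 rose and none fell, against 34.1% and 15.4% of all genes, with a median of 0.78 against 0.44. Against the near bins 2 of 4 tested genes rose, against 25.6% of all genes. Cd74, the invariant chain of MHC class II, was present at 72.8, 280, 46.2 and 441 molecules per member bin and 21.4, 54.6, 10.4 and 197 per other bin (log2 1.30, SE 0.23, limma adjusted p = 0.00434). Its level differed more between sections than between members and other bins. Cd80, Cd86 and Cd40, which costimulate lymphocytes or respond to them, rose by 1.15, 0.78 and 0.49 (limma adjusted p = 0.00572, 0.0202 and 0.0488). Against the near bins Cd80 still passed, while Cd86 was at 0.47 and Cd40 at 0.14 (limma adjusted p = 0.0867 and 0.628).

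None of the 10 tested T cell genes passed, while 34.1% of all genes rose and 15.4% fell. Their median was 0.23 against 0.44. Against the near bins none rose and 1 fell, Cd4, against 25.6% and 15.6% of all genes. Cd8a, of cytotoxic T cells, was present at 0.601, 1.66, 1.22 and 6.86 molecules per member bin and 0.422, 0.455, 0.444 and 4.08 per other bin (log2 0.59, limma adjusted p = 0.114). Cd3d, of the T cell receptor complex, was found in 3.44%, 12.1%, 10.5% and 13.6% of members. Cd4 was present at 14, 20.9, 17.5 and 2.09 molecules per member bin and 13, 18.3, 19.0 and 25.4 per other bin (log2 -1.42, limma adjusted p = 0.115). Its share was lower in all 4 sections and by far the most in combination replicate 2, and it fell against the near bins (-1.35, limma adjusted p = 0.00647). Of other low-proliferation bins, 47.4%, 57.4%, 61.9% and 58.3% held Cd4, but 2.49%, 5.40%, 3.39% and 11.5% held Cd3d. Cd4 molecules therefore cannot be read as a measure of T cells here. Of 9 cytotoxic and NK genes 1 rose and none fell, against 34.1% and 15.4% of all genes, with a median of 0.36 against 0.44. The gene that rose was Nkg7 (0.85, limma adjusted p = 0.0410), with 0.09 against the near bins.

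The neutrophil gene Ly6g was near 0, at 0.0137, 0.0268, 0.0189 and 0 molecules per member bin. Of 7 dendritic cell genes 2 rose (Itgax and Irf8) and 3 fell (Flt3, Batf3 and Sirpa), against 34.1% and 15.4% of all genes. Their median was 0.13 against 0.44. Against the near bins 1 rose and 2 fell, against 25.6% and 15.6% of all genes. Batf3, a transcription factor of dendritic cells, fell by 0.59 (limma adjusted p = 0.0303) but was at 0.04 against the near bins and 0.16 against touching bins. Flt3, the receptor of dendritic cell precursors, was present at 0.168, 0.242, 0.296 and 0.504 molecules per member bin and 1.47, 1.10, 0.906 and 0.458 per other bin (log2 -2.25, SE 0.52, limma adjusted p = 0.0111). Its share was lower in each section, while its molecules per bin were not lower in combination replicate 2. All 3 pan-leukocyte genes rose, against 34.1% of all genes, Ptprc (CD45) by 1.57 (SE 0.16, limma adjusted p = 0.000603).

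The genes with lower shares were mostly abundant ones whose molecules per bin differed less. The largest falls by share, however, were in the sparse genes Flt3, Tox, Ly6d and Il12a. Tox was at 154, 60.5, 234 and 91.9 CPM in members and Ly6d at 211, 247, 212 and 59.7. Cd47, the signal that keeps phagocytes from engulfing a cell, was present at 63.7, 82.6, 76.5 and 73.0 molecules per member bin and 74.3, 119, 102 and 93.5 per other bin (log2 -0.94, SE 0.15, limma adjusted p = 0.00287). Its receptor gene Sirpa, which myeloid cells and neurons express, was present at 106, 127, 121 and 101 per member bin and 114, 172, 149 and 118 per other bin (log2 -0.83, SE 0.16, limma adjusted p = 0.00575). Per bin, Cd47 differed by -0.38 (limma adjusted p = 0.0356) and Sirpa by -0.27 (limma adjusted p = 0.112). S1pr1, which endothelial cells and astrocytes express, fell by 1.02 as a share (SE 0.23, limma adjusted p = 0.0107) and Crbn by 1.10 (SE 0.13, limma adjusted p = 0.000923). Across member bins the shares of Cd47 and Dnmt3a, a DNA methyltransferase gene, correlated with a median Spearman rho of 0.79, and those of Cd47 and Cd74 with -0.54.

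**Figure D4:**
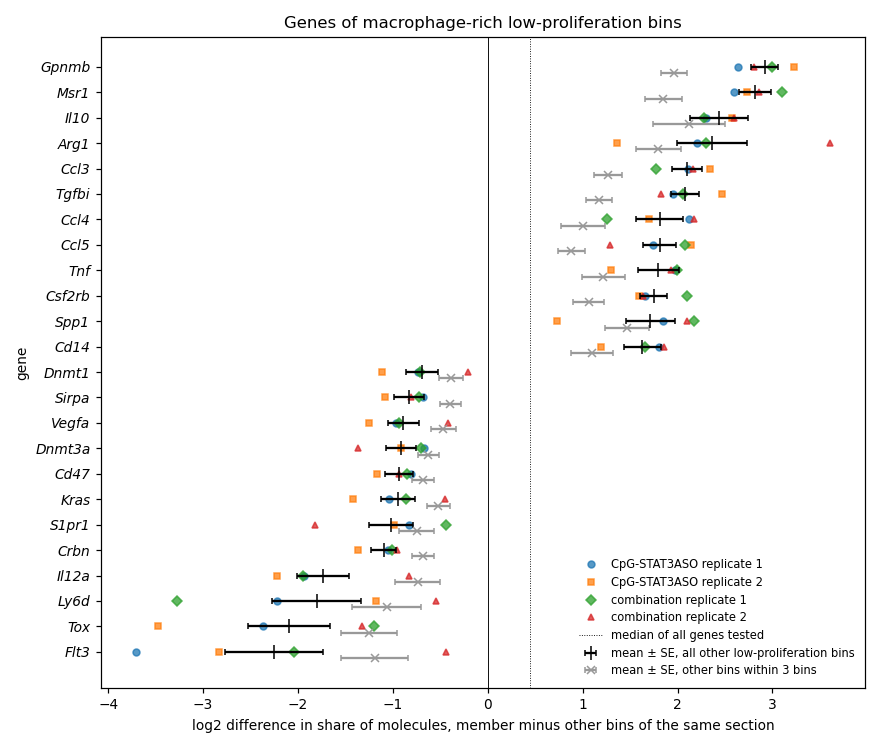
Log2 difference in the share of molecules (horizontal axis) for the 12 genes with the largest rise and the 12 with the largest fall, 1 coloured point per section, the mean and SE against all other low-proliferation bins in black and against those within 3 bins in grey. Gpnmb and Msr1 differ most, at 2.92 and 2.82, and the dotted line marks the median gene at 0.44.

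Against more similar bins few genes differed. Low-proliferation bins as rich in Adgre1 and Cd68 but with 30 or more Cxcl9 and Cxcl10 molecules numbered 7, 32, 7 and 105. No gene of 88 (0.0%) passed in limma, and 9 had an unadjusted p under 0.05, among them Cd274 at -0.72 and Cd40 at -1.10. Intermediate bins, with 10 to 99 Mki67 and Birc5 molecules and the same macrophage and chemokine limits, numbered 266, 177, 208 and 278. There 1 gene of 88 (1.14%) passed, the DNA synthesis gene Rrm2 at -2.07 (SE 0.13), which tracks the proliferation that separates those bins by rule, and 13 had an unadjusted p under 0.05. Cd8a differed by -0.46 (limma adjusted p = 0.0793). Against other low-proliferation bins, Rrm2 was higher in members, by 0.83, and passed. Against the near bins it was at 0.42 and did not pass.

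Within member bins, positions close to Adgre1 molecules were compared with positions farther out. The share of each gene within 50 pixels of an Adgre1 molecule was set against that at 200 to 300 pixels, relative to the median gene, around 5533, 2938, 5395 and 2539 Adgre1 molecules. Of 87 genes 43 (49.4%) passed (limma, Benjamini-Hochberg), 24 above (27.6%) and 19 below (21.8%). Cd86 was 1.18, 1.25, 1.37 and 0.81 above on the log2 scale (mean 1.15, SE 0.12, limma adjusted p = 0.00805). Csf1r was 0.91 above and Tmem119 0.84 (SE 0.13 and 0.10, limma adjusted p = 0.00805 each), and Mrc1 1.06 (SE 0.26, limma adjusted p = 0.0300).

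Of the 12 genes with the largest rise between bins, 8 were above near Adgre1, against 27.6% of all genes. They were Il10, Tnf, Csf2rb, Msr1, Tgfbi, Ccl3, Cd14 and Ccl4. Adgre1 helped choose the bins and also sets these positions, so this overlap is not independent support for those rises. Il10 had the highest value of all genes tested, at 1.47 (SE 0.38, above in 4 of 4 sections, limma adjusted p = 0.0325). It rests on 27, 33, 23 and 42 Il10 molecules in all members, with up to 4, 15, 4 and 12 in a single bin. A molecule was counted once for each Adgre1 molecule near it, so a few clumps can weigh heavily. The other 4 of the 12 genes did not pass. Gpnmb was at 0.07, -0.01, 0.64 and 0.03 (mean 0.18, limma adjusted p = 0.319), Spp1 at 0.21, Arg1 at 0.14 and Ccl5 at 0.12. Msr1 and Tgfbi were at 0.68 and 0.67 (limma adjusted p = 0.0327 and 0.0208). Cd4 was 0.44 below the median gene (a value of -0.44, limma adjusted p = 0.0313) and Vegfa at -0.56 (limma adjusted p = 0.00805). Within 30 pixels 25 genes were above and 15 below, and within 100 pixels none of 90 passed.

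**Figure D5:**
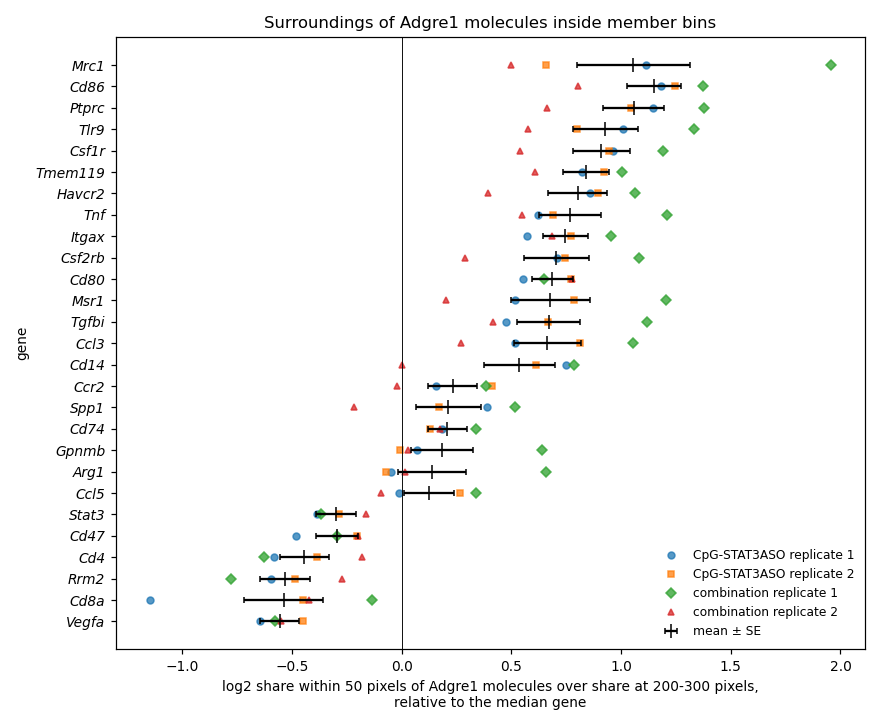
Log2 share within 50 pixels of Adgre1 molecules over the share at 200 to 300 pixels (horizontal axis, relative to the median gene) inside member bins, 1 point per section given CpG-STAT3ASO, with the mean and SE in black. Mrc1 and Cd86 lie at 1.06 and 1.15, Gpnmb and Arg1 near 0 at 0.18 and 0.14, and Vegfa at -0.56.

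The combination and CpG-STAT3ASO alone were compared within members, 2 sections each. None of 86 genes (0.0%) passed in limma, 1 had an unadjusted p under 0.05, and limma voom gave 0 at either level. That gene was Arg1, at 1409 and 519 CPM under CpG-STAT3ASO alone and at 1683 and 4249 under both agents (log2 1.64, SE 0.71, limma adjusted p = 0.997). Without combination replicate 1, 2 genes passed.

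Sections without CpG-STAT3ASO had too few members for a test at 360 pixels. In bins of 180 pixels, with limits of 8 macrophage and 3 proliferation molecules, a setting chosen after the data were seen, the PBS sections held 138 and 65 members, the anti-PD1 sections 55 and 77, the CpG-STAT3ASO sections 1300 and 792 and the combination sections 1542 and 967. With against without CpG-STAT3ASO, 7 of 84 genes (8.33%) were higher within members and none lower, and 24 had an unadjusted p under 0.05. They were Ccl5 (log2 3.22), Gpnmb (3.18), Arg1 (2.70), Tgfbi (2.65), Cd8a (2.51), Ccr2 (2.39) and Msr1 (1.89), with limma adjusted p-values from 0.00302 to 0.0187. The number depended on single sections and on scaling: it was 1 to 16 when a section was left out and 1 with median-of-ratios scaling. It was 16 without PBS replicate 1 (all higher), 16 without either anti-PD1 section (15 higher and 1 lower), 16 without combination replicate 1 (8 higher and 8 lower), and 1 without CpG-STAT3ASO replicate 1 or combination replicate 2.

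Gpnmb in these small members was at 22267 CPM in PBS replicate 1 and at 1421, 877 and 1003 in the other sections without the agent, against 15733 to 26698 with it. PBS replicate 1 thus lay in the range of the treated sections. Mrc1 went the other way, at 2185, 2765, 8965 and 5104 without and 2129, 589, 1969 and 380 with the agent (log2 -2.05, SE 0.60, limma adjusted p = 0.0560). Arg1 was at 397, 538, 195 and 87.3 without and 1177, 599, 2187 and 4319 with it. These did not overlap, but the nearest values, 538 and 599, were close. Small members held 42268, 26780, 21075 and 23698 molecules in all without the agent and 300444 to 475692 with it. The Arg1 values without the agent therefore rest on few molecules.

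The difference between small members and other small low-proliferation bins also varied with the agent for 2 of 92 genes (2.17%). For Arg1 it was 0.35, 0.59, -0.83 and -1.24 without and 1.73, 1.52, 2.5 and 2.27 with CpG-STAT3ASO (log2 2.29, SE 0.20, limma adjusted p = 0.00282). The values without the agent rest on few Arg1 molecules in the small members. Icosl was the other (3.34, limma adjusted p = 0.0152), but no Icosl molecule lay in the members of the 4 sections without the agent and at most 21.9 CPM in the others, so its size depends on the pseudocount. Leaving out a section gave 1 to 8 genes: 8 without PBS replicate 1, 4 without PBS replicate 2, 5 and 7 without anti-PD1 replicates 1 and 2, and 1 without any single section given the agent. Over all 8 sections 37 of 92 genes (40.2%) differed between small members and other small bins, 23 higher (25%) and 14 lower (15.2%), among them Msr1 at 2.57 and Mrc1 at 2.36, each higher in 8 of 8 sections. Gpnmb, at 1.07, was higher in 5 of 8 and did not pass (limma adjusted p = 0.174).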

How the data were processed

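Per the labels, the 8 files are Resolve single-molecule in situ hybridization results, and the authors deposited for each molecule its x, y and z position in pixels and its target. The submitters' processing notes name Seurat 4.2.0 with no role; no source used here gives the molecule caller or the pixel size. All 28 FP codes were dropped, and molecules were counted per gene in 360-pixel bins. Members and gene lists were chosen with earlier results of these data known.

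Shares were log2(CPM + 1), the 6 rule genes left out, of genes that averaged 10 or more molecules a section. They were tested with limma 3.58.1 (R 4.3.3; eBayes with trend) and Benjamini-Hochberg adjustment at 0.05. Permutation tests were exact (Python 3.11.15, scipy 1.17.1). On simulated data the fit recovered changes in share. When abundant genes changed, it also called genes that had been left as they were, since all shares then shift, so a lower share is not a lower number of molecules. Treatment contrasts within members could not be fitted at 360 pixels, as the sections without CpG-STAT3ASO held under 20 members, and were run at 180 pixels. This departs from the design.

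Named genes were the 12 with the largest change each way among those that passed and moved the same way in every section, a listed set of macrophage and lymphocyte genes, and the 3 most abundant of each gene list. Tgfb1, Il1b, Batf3 and Icosl were named after their values were seen. Alternatives changed the limits, bin size, scaling, pseudocount, filter, fit, comparison bins and sections. The nearby and touching comparison bins, the 180-pixel results, the other radii around Adgre1 molecules and the crossed pairing were chosen after seeing the data. The result of 1 named gene is not reported here.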

Additional observations from a re-analysis of the deposited data

Results flagged for a closer look

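In 59 sets of 4 sections, 8 had a section standing apart from the other 3 by Dixon's criterion, where chance gives about 1 in 20. For the log2 difference between member and other bins these were Tnf in CpG-STAT3ASO replicate 2 (1.30), Csf2rb in combination replicate 1 (2.10), and 5 genes in combination replicate 2: Cd4 (-4.18), Ly6g (-3.00), Ccl22 (-2.58), Cd40 (0.30) and Ptprc (1.05). The share of tissue in PBS replicate 1 (0.541%) stood apart from the other sections without CpG-STAT3ASO. In bins of 180 pixels the difference between members and other bins changed with CpG-STAT3ASO for Arg1 (2.29) and Icosl (3.34).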

How the results depend on the processing

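The number of genes that differed between members and other low-proliferation bins stayed between 33 and 59 in every setting tried, and 35 to 58 when a section was left out. Of 57 named genes 39 passed, and 17 of these passed in all 26 alternatives. The alternative limited to the 4 sections given CpG-STAT3ASO repeats the main fit, so its agreement was fixed. Signs turned for Il10 (-0.71) and Nkg7 (-0.94) in 180-pixel bins, a setting that also took in the 4 sections without CpG-STAT3ASO. In the 4 sections with it, Il10 was above 0 in all and Nkg7 in 3. Nkg7 was at -0.0199 against touching bins. For the share of tissue, leaving out a section gave differences of 7.98 to 11.9 points, at p = 0.0571 (exact permutation, the smallest possible) without any one section lacking CpG-STAT3ASO. Replicate numbers are shared between treatments. Over all tissue bins, deviations of same-numbered sections correlated above 0 in 3 of 6 pairs of treatments (0.25 to 0.59 over genes). They correlated below 0 in the 3 pairs with anti-PD1 (-0.52 to -0.31). For CpG-STAT3ASO and the combination the value was -0.24 over member bins, against 0.25 over all tissue bins. Same-numbered sections were therefore not taken as pairs. With the replicate block the differences were 10.2 points of tissue and 14 points of low-proliferation bins, each at p = 0.0556, the smallest that 36 assignments allow (exact permutation). The combination against CpG-STAT3ASO gave 0 genes with the replicate block and 1 with the pairing crossed, and 0 to 2 when a section was left out, 2 without combination replicate 1. The distance to dense bins was -3.68 with dense from 50 molecules and -11.7 from 200. For CpG-STAT3ASO within 180-pixel members, the count was 1 by median-of-ratios, 14 with pseudocount 10, 11 with a mean of at least 50 molecules, 10 with the replicate block and 1 to 16 when a section was left out. For the difference between members and other bins it was 4 by median-of-ratios, 1 with pseudocount 10, 1 with the mean of 50, 1 with the replicate block and 1 to 8 when a section was left out. The causes were not tested. Not run, for want of members, were the planned treatment contrasts at 360 pixels with their alternatives, and the gene comparison in sections without CpG-STAT3ASO alone. With 2 sections per treatment, sparse genes such as Il10 and Icosl are limited by depth, as is Arg1 in small members without CpG-STAT3ASO.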
